A study of Bubalus bubalis with 36 samples.

Results

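Immediate early response genes were described in 6 adipose depots of the river buffalo. The 10 genes were FOS, FOSB, JUN, JUNB, JUND, EGR1, ATF3, NR4A1, IER2 and DUSP1. They were found by their symbol in the FPKM table (fragments counted per length of the gene model and per depth of the library), and the gene model with the highest mean was taken where a symbol had several. The table held 23032 gene models, and 11 of them bore one of the 10 symbols. The additional one was a second JUNB model.

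These genes are switched on within minutes of a stimulus without new protein synthesis. Growth factors, hormones, mechanical strain, cell stress and tissue dissection can all induce them, mostly through MAP kinases, the serum response factor SRF and CREB, and their RNAs are short lived. FOS and JUN proteins pair to form the transcription factor AP-1. In fat, such genes are used as a sign of acute stimulation or of how a sample was handled, and some of them, such as EGR1 and NR4A1, also take part in adipocyte metabolism and differentiation.

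The 36 libraries came from 6 fattened animals, each sampled in 6 depots, so each depot had 6 libraries, and the labels name no treatment. The SATs were subcutaneous fat of the back (BSAT) and the sternum (SSAT) and inguinal fat (IAT). The VATs were fat of the omentum (OAT), the pericardium (PCAT) and the kidney (PRAT), with 18 libraries in each class. Animals 1 to 3 were males aged 19, 20 and 21 months, labelled Murrah. Animals 4 to 6 were females aged 20, 20 and 21 months, labelled Nili-Ravi. A supplement of the study gives 1 breed, Murrah, for all 6 animals, and by the labels sex and breed cannot be told apart. A library is named by its depot and its animal, so that BSAT 3 is the back fat of animal 3. Whole tissue was sequenced, and a lower level from fewer expressing cells cannot be told apart from less RNA per cell. For neither the order in which depots were cut out nor the time to freezing does any source used here give a value, and both cannot be told apart from the depot.

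FPKM summed to between 796645 and 911384 per library, and read counts were not used here. Adipocyte genes were present in every library. ADIPOQ, the adipokine adiponectin, averaged 1150 FPKM and was never below 32.6. Their level was not even, however. The summed level of the adipocyte markers fell to 391 FPKM in an OAT, 388 FPKM in a PRAT and 862 FPKM in a PCAT library. The medians of these depots were 6456, 8465 and 6378 FPKM. In SATs the sum ran from 1848 to 7616 FPKM. Libraries OAT 1, OAT 4, PRAT 2, PRAT 4, IAT 4 and PCAT 2 were rich in lymphocyte genes, and BSAT 1 was rich in skeletal muscle genes. Differences below are differences of log2(FPKM + 0.1). They were tested with limma over the 17688 gene models that averaged more than 0.1 FPKM, and an adjusted p under 0.05 over these gene models was the threshold. All 10 genes passed the expression limit.

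The 10 genes tended to be high or low together in a library. For each gene, the log2 value was taken relative to the mean of that gene over the 36 libraries, and the mean over the 10 genes gave the level of a library. This level was 2.16 in BSAT 3, 1.99 in IAT 5, 1.51 in IAT 6, 1.43 in PCAT 4 and 1.32 in BSAT 1. BSAT 3 was among the 3 highest libraries for 10 of 10 genes, and IAT 5 for 9. The lowest levels were -2.12 in SSAT 6, -1.47 in PRAT 2 and -1.31 in SSAT 2. SSAT 6 was among the 3 lowest libraries for 9 of 10 genes.

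**Figure D1:**
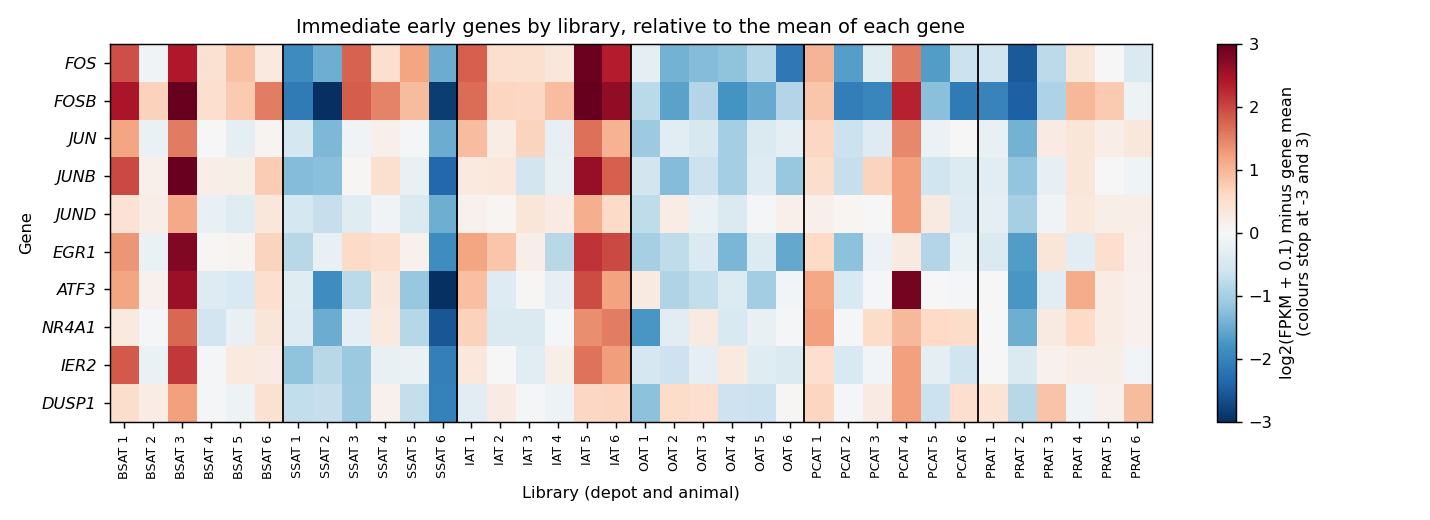
Level of the 10 genes in each of the 36 libraries, as log2(FPKM + 0.1) minus the mean of the gene (colour, stopping at -3 and 3). Columns are libraries in blocks of 6 per depot and rows are genes. BSAT 3 and IAT 5 are high and SSAT 6 and PRAT 2 are low across nearly all rows. The OAT block is low on average over the rows, while single rows, such as DUSP1 in OAT 2, lie above the mean of the gene.

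High and low libraries occurred within one depot and within one animal. In animal 6, IAT 6 stood at 1.51 and SSAT 6 at -2.12, the widest span of any animal (3.62). In animal 2 the span was narrowest, at 1.67. Among depots, SSAT spanned 2.47, BSAT 2.17, PCAT 2.16, IAT 2.00 and PRAT 1.86. OAT spanned only 0.38, with every library between -0.81 and -0.42. OAT held neither the highest nor the lowest libraries, and the lymphocyte-rich OAT 1 and OAT 4 were its 2 lowest.

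FOS, the partner of JUN in AP-1, was higher in SATs. FOS (gene model evm.model.chr12.839) ranged from 32.0 to 907 FPKM in SATs with a median of 166, and from 20.5 to 349 FPKM in VATs with a median of 72.0. The highest library was IAT 5 and the lowest was PRAT 2, and the classes overlapped widely. The difference was 1.44 (standard error 0.39, limma adjusted p = 0.00627), and the SAT mean exceeded the VAT mean in 6 of 6 animals, by 0.20 to 2.51. It passed the threshold under each alternative tried.

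The depots did not contribute to this equally. The median of FOS was 287 FPKM in IAT (150 to 907) and 190 FPKM in BSAT (109 to 619). In SSAT it was 105 FPKM (32.0 to 401), near the 83.6 FPKM of PCAT and the 82.6 FPKM of PRAT. OAT was lowest, with a median of 49.3 FPKM (26.4 to 97.0). Every BSAT and every IAT library lay above every OAT library, while SSAT overlapped with all 3 VAT depots. By depot mean on the log2 scale the order was IAT, BSAT, SSAT, PCAT, PRAT and OAT, and no neighbours in it passed the test (limma adjusted p between 0.513 and 1).

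FOSB (evm.model.chr21.631), a FOS relative, varied most of the 10 genes. It ranged from 21.9 FPKM in SSAT 2 to 2917 FPKM in IAT 5, a 133-fold span. The SAT libraries had a median of 389 FPKM (21.9 to 2917) and the VAT libraries one of 96.3 FPKM (37.4 to 1017). The classes overlapped, with PCAT 4 at the top of the VATs and SSAT 2 at the bottom of the SATs. The difference was 1.72 (standard error 0.53, limma adjusted p = 0.0137), in the same direction in 6 of 6 animals. It fell short of the threshold without animal 3 (1.44, limma adjusted p = 0.0795) and without the 6 lymphocyte-rich libraries (1.58, limma adjusted p = 0.0505).

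SSAT fell into separate ranges for FOSB. In SSAT 3, SSAT 4 and SSAT 5 it lay near the level of BSAT and IAT, up to 713 FPKM, and in the other SSAT libraries near the lowest values of the series. PCAT had a median of 68.9 FPKM (46.7 to 1017), and OAT was narrow at 91.0 FPKM (58.6 to 116). Every BSAT library (288 FPKM or more) and every IAT library (314 FPKM or more) exceeded every OAT library. The order of depot means on the log2 scale was IAT, BSAT, PRAT, SSAT, PCAT and OAT, and by mean FPKM, which the highest libraries dominate, PRAT (189 FPKM) came after SSAT (295 FPKM) and PCAT (269 FPKM). The largest step, from BSAT to PRAT, was 2.15 (limma adjusted p = 0.0859).

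None of the JUN genes, whose proteins bind DNA with FOS or with each other, passed the test between the classes. JUN (evm.model.chr6.759), the strongest activator among them, had a median of 73.7 FPKM in SATs (25.3 to 222) and 59.5 FPKM in VATs (26.6 to 193). The difference was 0.36 (standard error 0.25, limma adjusted p = 0.276). Both ranges were nearly the same.

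JUNB (evm.model.chr9.263), which can restrain JUN, had a median of 27.7 FPKM in SATs (4.64 to 190) and 18.3 FPKM in VATs (9.75 to 56.9). The SAT libraries held both the lowest library, SSAT 6, and the highest, BSAT 3. The difference was 0.65 (standard error 0.35, limma adjusted p = 0.147). With 1 SAT mean and 1 VAT mean per animal in a paired fit, the adjusted p from limma was 0.0231, and the SAT mean was higher in 5 of 6 animals. The second JUNB model averaged 32.8 FPKM against 34.3 FPKM for the first, their ratio stayed between 0.819 and 1.11 over the libraries, and r was 0.995 over 36 libraries. RefSeq lists 1 JUNB gene on the assembly NDDB_SH_1, so the models may share reads, and the level of JUNB is uncertain. JUND (evm.model.chr9.105), the most steadily expressed JUN gene in most tissues, varied least of the 10 genes. It had a median of 53.4 FPKM in SATs (18.1 to 109) and 51.3 FPKM in VATs (25.1 to 117), with a difference of 0.04 that changed sign between alternatives.

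EGR1, a zinc finger factor that is induced by serum and insulin, was higher in SATs. EGR1 (evm.model.chr9.857) had a median of 1305 FPKM in SATs (283 to 7043) and 764 FPKM in VATs (319 to 1542). The range of the SATs enclosed that of the VATs, and SSAT 6 was the lowest and BSAT 3 the highest library. The difference was 0.95 (standard error 0.31, limma adjusted p = 0.0189), positive in 6 of 6 animals (0.38 to 1.36). It fell short of the threshold without animal 2 (0.87, limma adjusted p = 0.0669), without the 6 lymphocyte-rich libraries (0.78, limma adjusted p = 0.0803), and without BSAT 3 and IAT 5 (0.70, limma adjusted p = 0.0553), which were left out after the values had been seen.

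EGR1 was the most abundant of the 10 genes on the FPKM scale, which is per gene length, with a mean of 1372 FPKM. Its median was 2071 FPKM in IAT (578 to 4587), 1353 FPKM in BSAT (883 to 7043) and 996 FPKM in SSAT (283 to 1533). In VATs it was 982 FPKM in PRAT, 898 FPKM in PCAT and 559 FPKM in OAT (353 to 769). Every BSAT library lay above every OAT library, while IAT 4 fell within the OAT range. By depot mean on the log2 scale the order was IAT, BSAT, PRAT, PCAT, SSAT and OAT, with no neighbours past the threshold. By mean FPKM, SSAT (973 FPKM), PRAT (970.0 FPKM) and PCAT (926 FPKM) were close.

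NR4A1 (evm.model.chr4.471), an orphan nuclear receptor that responds to beta-adrenergic stimulation in fat, did not pass between the classes. Its median was 612 FPKM in SATs (114 to 2212) and 758 FPKM in VATs (201 to 1574), with a difference of -0.12 (standard error 0.29, limma adjusted p = 0.787). By mean FPKM the order was reversed, 816 in SATs and 781 in VATs, and without SSAT 6 the difference was 0.032. PCAT had the highest depot mean, with 656 to 1574 FPKM and a median of 1008.

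ATF3 (evm.model.chr5.1392), a CREB family repressor induced by the integrated stress response, had nearly equal class levels. Its median was 63.2 FPKM in SATs (8.04 to 401) and 65.9 FPKM in VATs (20.1 to 499), and the difference was 0.00 (standard error 0.38). The highest library was PCAT 4, followed by BSAT 3, and the lowest was SSAT 6. The depot means of BSAT, PCAT and IAT lay within 0.014 of each other on the log2 scale, and by mean FPKM PCAT was highest.

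IER2 (evm.model.chr9.244), a nuclear protein of the early response, had a median of 172 FPKM in SATs (42.1 to 764) and 155 FPKM in VATs (113 to 409). DUSP1 (evm.model.chr18.21), the phosphatase that switches off p38, JNK and ERK MAP kinases, had a median of 138 FPKM in SATs (35.1 to 339) and 163 FPKM in VATs (60.6 to 337). The differences were 0.18 and -0.22 (standard errors 0.27 and 0.23, limma adjusted p = 0.628 and 0.489). For IER2 the range of the SATs enclosed that of the VATs, with SSAT 6 lowest and BSAT 3 highest. For DUSP1 the classes overlapped over nearly the whole range.

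**Figure D2:**
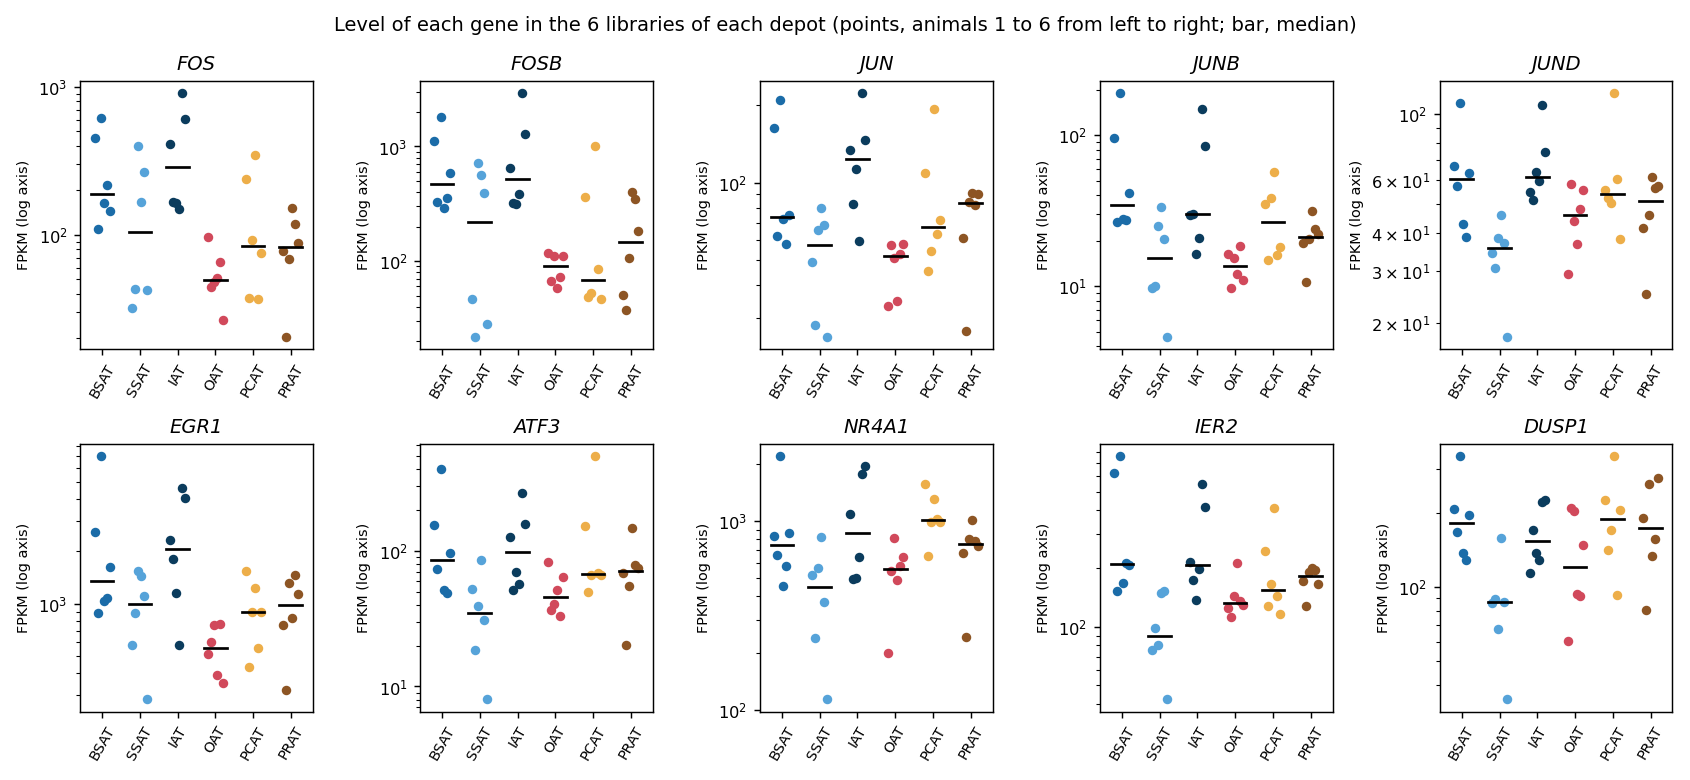
FPKM (log axis) of each of the 10 genes in the 6 libraries of each depot. Points are animals 1 to 6 from left to right and the bar is the median. BSAT and IAT lie above OAT for FOS and FOSB without overlap, and SSAT is low for ATF3, IER2 and DUSP1 with SSAT 6 lowest.

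Between the classes, 3 of 10 genes passed the test, FOS, FOSB and EGR1, and all 3 were higher in SATs. Over all gene models tested, 30% passed, and 7.9% passed with a higher and 22.1% with a lower level in SATs. The share of the 10 genes was thus that of all gene models in both directions together, and above it in the SAT direction. The median difference of the 10 genes was 0.27, and that of all gene models was -0.13. Quantile normalization, which forces every library to the same distribution, moved the median of all gene models to -0.02 and the share of calls that were higher in SATs from 26.3% to 55.0%, and FOS, FOSB and EGR1 passed under it as well. Without the 6 lymphocyte-rich libraries 1 gene passed, FOS. The fit took libraries as independent, although 3 depots stand for each class.

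**Figure D3:**
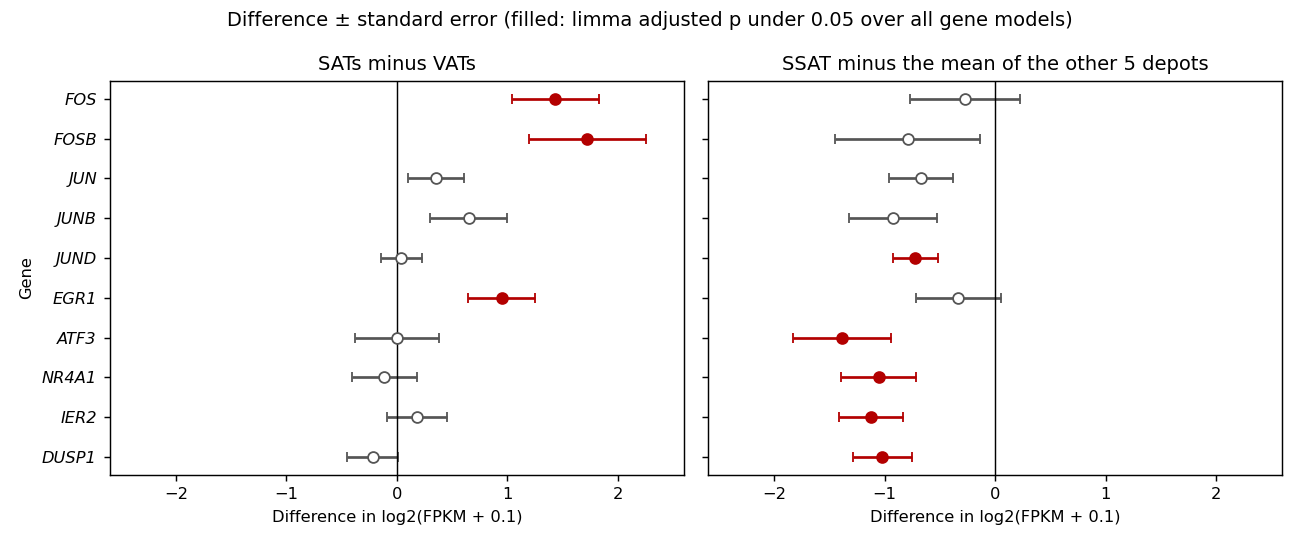
Difference in log2(FPKM + 0.1) with its standard error for SATs minus VATs (left) and for SSAT minus the mean of the other 5 depots (right). Filled points passed the limma test. FOS, FOSB and EGR1 pass on the left only, and ATF3, NR4A1, IER2, DUSP1 and JUND pass on the right only.

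SSAT was low in other members of the group. Against the mean of the other 5 depots, 5 of 10 genes were lower in SSAT and none was higher, while 9.13% of all gene models passed and 5.23% passed with a lower level in SSAT. These were ATF3, DUSP1, IER2, JUND and NR4A1, none of which passed between SATs and VATs. The median difference of the 10 genes was -0.86, against -0.10 for all gene models. The calls depended on single libraries and animals. There were 0 without animal 3 or animal 6 and 1 without animal 1. All gene models also lost calls there, with 2.21%, 2.09% and 5.81% passing. Without the 6 lymphocyte-rich libraries there were 6 of 10, where 15.7% of all gene models passed. Without SSAT 6, left out after the values had been seen, none of the 10 genes passed with limma, at adjusted p between 0.0855 and 0.227 for the 5 genes, and 5 of 10 had an unadjusted p under 0.05. In all gene models, 3.86% then passed. Quantile normalization moved the share of calls that were higher in SSAT from 42.7% to 70.4%, and IER2 and DUSP1 passed under it.

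IER2 had a median of 89.4 FPKM in SSAT (42.1 to 153), and of 173 FPKM in the other 30 libraries (113 to 764). SSAT 6 was the lowest of all libraries, and the upper SSAT libraries overlapped with the other depots. The difference was -1.13 (standard error 0.29, limma adjusted p = 0.0140), and SSAT was below the mean of the other depots in 6 of 6 animals. Without SSAT 6 it was -0.90 (limma adjusted p = 0.0855).

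DUSP1 had a median of 86.6 FPKM in SSAT (35.1 to 157), against 168 FPKM elsewhere (60.6 to 339). Its difference was -1.02 (standard error 0.27, limma adjusted p = 0.0145), and -0.79 without SSAT 6. SSAT was lower in 5 of 6 animals, the exception being animal 4 at 0.07. SSAT 4 was also the highest SSAT library for ATF3, NR4A1 and JUND.

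ATF3 had a median of 34.9 FPKM in SSAT (8.04 to 86.1), against 68.5 FPKM elsewhere (20.1 to 499). The difference of -1.38 (standard error 0.44, limma adjusted p = 0.0448) had the same sign in 6 of 6 animals, from -3.41 in animal 6 to -0.25 in animal 4. NR4A1 had a median of 446 FPKM in SSAT (114 to 820), against 758 FPKM elsewhere, with a difference of -1.05 (standard error 0.34, limma adjusted p = 0.0458). Both lay close to the threshold, and both missed it under quantile normalization, without a filter, without BSAT 1, without SSAT 6 and without animal 1, 2, 3, 5 or 6. NR4A1 also missed it without BSAT 3 and IAT 5 (-0.96, limma adjusted p = 0.0516).

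JUND had a median of 35.7 FPKM in SSAT (18.1 to 46.1), against 55.7 FPKM elsewhere (25.1 to 117). It differed by -0.72 (standard error 0.20, limma adjusted p = 0.0231), lower in 6 of 6 animals, and by -0.55 without SSAT 6. Over the 10 genes there were 3 calls without animal 2 or animal 5, and 3 without the muscle-rich BSAT 1. In these settings, 7.47%, 7.28% and 8.75% of all gene models passed. The 3 were JUND, IER2 and DUSP1 each time, and without animal 1 the call was DUSP1.

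The other depots held no gene past the threshold. Against the other 5 depots, 0 of 10 genes passed with limma in IAT, BSAT, OAT, PCAT and PRAT, while 0.181%, 2.01%, 0.78%, 4.26% and 10.9% of all gene models did. At an unadjusted p under 0.05 there were 7 of 10 in IAT, 5 in BSAT, 5 in OAT, 1 in PCAT and 0 in PRAT, where all gene models gave 1470, 3046, 3410, 2672 and 4682 of 17688. The median difference of the 10 genes was 0.76 in IAT and 0.77 in BSAT, and -0.65 in OAT. The widest values were those of FOSB, at 2.07 in IAT (limma adjusted p = 0.335), 1.82 in BSAT (limma adjusted p = 0.128) and -1.50 in OAT (limma adjusted p = 0.216). For PCAT and PRAT the median differences were 0.16 and -0.13.

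Between single depots, 9 of 150 tests passed over 15 pairs, near the 5.48% of tests that passed over all gene models. The calls below are thus a description of single pairs. BSAT exceeded OAT for FOS (2.18, limma adjusted p = 0.0410), JUNB (1.88, limma adjusted p = 0.0292) and EGR1 (1.70, limma adjusted p = 0.0408), which is 3 of 10 genes where 5% of all gene models passed. FOSB stood at 2.77 in that pair with an adjusted p of 0.0500364 from limma, just outside the threshold. JUNB missed it without BSAT 1 (1.69) and without the lymphocyte-rich libraries (1.91). FOS was also higher in IAT than in OAT (2.61) and PRAT (2.06), 1 of 10 genes in each pair, where 0.95% and 7.55% of all gene models passed. Without BSAT 3 and IAT 5, the differences of FOS were 1.90 (BSAT and OAT), 2.30 (IAT and OAT) and 1.76 (IAT and PRAT) and that of EGR1 was 1.30, and none of these passed with limma (adjusted p between 0.078 and 0.155). In these depots, no library of BSAT overlapped with OAT for 4 of 10 genes, FOS, FOSB, JUNB and EGR1, and no library of IAT did for 3 of 10, FOS, FOSB and JUN. Over all gene models, these shares were 0.769% and 0.452%.

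SSAT was lower than PCAT for JUND (-0.83), NR4A1 (-1.52) and DUSP1 (-1.18), 3 of 10 genes, where 7.94% of all gene models passed. It was lower than PRAT for DUSP1 only (-1.09), 1 of 10 genes, which is below the 20.9% of all gene models. All 4 missed the threshold without SSAT 6, at -0.66 (JUND), -1.18 (NR4A1), -0.95 and -0.85 (DUSP1). With the animal as a term, 15 of the 150 tests passed. That fit also raised the share of all gene models, from 30% to 36.3% between the classes and from 9.13% to 14.5% in SSAT. For pairs of depots, the share over all gene models was not taken in this fit or without an animal. Leaving out an animal gave 0 calls without animal 1 or 6, 1 without animal 3, 4 without animal 5, 7 without animal 2 and 13 without animal 4. In the order of depot means on the log2 scale, no pair of neighbours passed the test for any of the 10 genes. JUND, ATF3, NR4A1, IER2 and DUSP1 had SSAT at the lower end, and FOS, FOSB, JUN, JUNB and EGR1 had OAT there.

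No gene of the 10 passed the test between animals. In a fit with the depot, 0 of 10 passed limma's F test for the animal at adjusted p between 0.190 and 0.798, where 18.5% of all gene models passed, and none had an unadjusted p under 0.05. FOS came nearest (limma adjusted p = 0.190). Females against males gave 0 of 10, and 0% of all gene models, on the means of each animal (limma), with no unadjusted p under 0.05. The largest difference was that of FOSB, 0.69 higher in females (standard error 0.49). The SAT minus VAT difference was compared between the sexes too, and 0 of 10 genes, and 0% of all gene models, passed. JUND alone had an unadjusted p under 0.05, with a female minus male difference of -0.48 (standard error 0.16, limma adjusted p = 0.982).

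**Figure D4:**
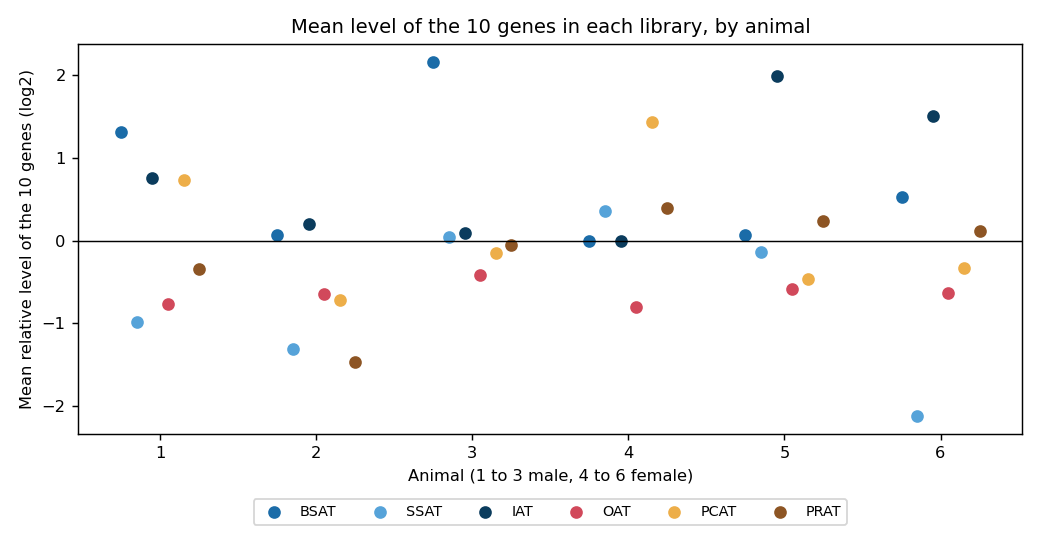
Mean level of the 10 genes in each library, relative to the mean of each gene (log2), by animal and coloured by depot. Each animal holds libraries above and below 0, with spans from 1.67 in animal 2 to 3.62 in animal 6.

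The variance of these genes lay between depots, and in a rest shared by neither depot nor animal, more than between animals. Each depot of an animal had a single library. Depot differences that vary by animal thus cannot be told apart from other spread between libraries in this rest. The depots held 32.9% (ATF3) to 43.4% (IER2) of the sum of squares of a gene, with a median of 38.9% against 23.2% over all gene models. The animals held 5.76% (DUSP1) to 18.1% (ATF3), with a median of 12.1% against 20.6%. The rest, in neither, had a median of 48.9% against 51.2%. On the log2 scale its standard deviation was 0.82 in the median gene, against 0.39 over all gene models tested. FOSB, at 1.44, exceeded 97.8% of gene models with an average FPKM of at least 1, and JUND, at 0.48, exceeded 66.0%. These are descriptions with no test.

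**Figure D5:**
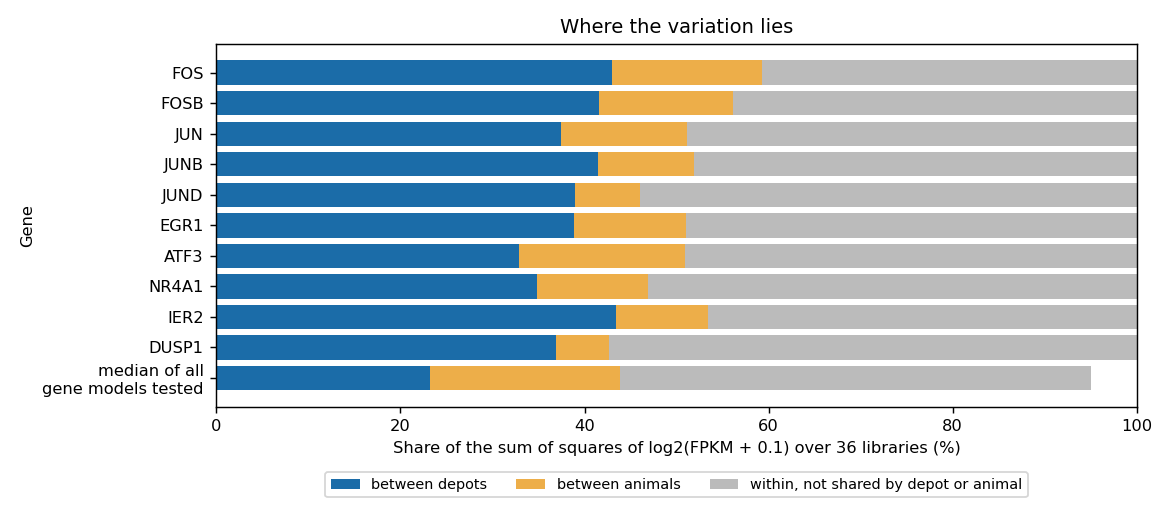
Share (%) of the sum of squares of log2(FPKM + 0.1) over 36 libraries that lies between depots, between animals and in the rest, for each of the 10 genes and as the median over all gene models tested. The last bar does not reach 100% because the 3 medians were taken separately. The depot share of each of the 10 genes exceeds the median of all gene models of 23.2%.

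The 10 genes went together across libraries. Over 36 libraries, which share animals and depots, the 45 pairs had Pearson's r between 0.384 and 0.915 with a median of 0.775, and 33 pairs had r above 0.7. FOS and FOSB had the highest r, and FOS and DUSP1 the lowest. With depot means removed, r lay between 0.410 and 0.883 with a median of 0.750. FOS in FPKM was 1.20 times DUSP1 in the median SAT library and 0.403 times in the median VAT library. EGR1 was 2.32 times NR4A1 in the median SAT library and 0.956 times in the median VAT library. The relative levels within the group thus differed between the classes, with overlap, and this was noticed after the values had been seen.

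The genes most like the group were sought among 11770 gene models with a symbol and an average FPKM of at least 1, by r with the mean of the 10 standardized genes over 36 libraries. The nearest was PPP1R15A (r = 0.939), which directs a phosphatase to the translation factor eIF2 alpha in the stress response. It was followed by ZFP36 (r = 0.926), which marks RNAs with AU-rich elements for decay, and BTG2 (r = 0.905), an antiproliferative gene. C2CD4A (r = 0.887), DUSP5 (r = 0.867), a nuclear ERK phosphatase, and HIGD1A (r = 0.861), a mitochondrial protein induced by hypoxia, came next. ATG101 (r = 0.854), of the autophagy initiation complex, IFRD1 (r = 0.853), CCN1 (r = 0.848), a matricellular protein, and TTC21A (r = 0.845), a cilium gene, completed the first 10.

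ATG101 and TTC21A have neighbours with an early response. On the RefSeq assembly NDDB_SH_1, ATG101 follows NR4A1 and TTC21A lies next to CSRNP1. Over 36 libraries r was 0.704 for ATG101 with NR4A1 and 0.723 for TTC21A with CSRNP1, and whether neighbouring models share reads was not tested. ZFP36 was the most abundant of the 10 at a median of 893 FPKM, and rose to 8778 FPKM in BSAT 3. These genes were chosen by their likeness over the same libraries, so where they are high or low, their lower level in SSAT included, is a description. Of the 10, BSAT 3 was the highest library for 8 and IAT 5 for 2, and SSAT 6 the lowest for 9. Against the other depots, BTG2 (-1.52), DUSP5 (-1.32), HIGD1A (-0.66) and IFRD1 (-0.94) were lower in SSAT, and TTC21A (0.85) was higher in SATs than in VATs.

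Other genes of the early response followed the same libraries. Of a list of 25, 20 were tested. The mean level of the list had r = 0.915 with that of the 10 genes over 36 libraries, and r = 0.875 with depot means removed. BSAT 3 and IAT 5 were the highest and SSAT 6 the lowest library for this list too. In SSAT, 6 of 20 were lower, against 5.23% of all gene models, and none was higher. Among the 6 were BTG2, the kinase SGK1 (-1.37), the pseudokinase TRIB1 (-1.54) and the nuclear factor CSRNP1 (-1.09). Between the classes, the Krueppel-like factors KLF2 (0.75), KLF4 (1.03) and KLF6 (0.46) were higher in SATs and CEBPB (-0.57), an adipogenic factor, was lower, 4 of 20 against 30% of all gene models. Without SSAT 6, 1 of 20 was lower in SSAT, and between the classes 5 were higher and 1 was lower in SATs. Without the 6 lymphocyte-rich libraries, 9 of 20 were lower in SSAT and 3 of 20 differed between the classes. In either direction, 3.86% (SSAT) and 27.3% (classes) of all gene models passed in the first setting. In the second, 15.7% and 28.6% did. With all libraries, ZFP36 had a difference of 0.64 between the classes (limma adjusted p = 0.113) and PPP1R15A one of 0.55 (limma adjusted p = 0.0870).

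Of 8 other EGR, NR4A and IER family genes and their partners, 3 passed, all higher in VATs, where 30% of all gene models passed and 22.1% were higher in VATs. These were the receptor NR4A3 (-0.95), the EGR corepressor NAB1 (-0.26) and IER5 (-0.40), and in SSAT NR4A3 (-1.89) and IER5 (-0.77) were lower. Of these 8, 1 differed between the classes without SSAT 6 or without the lymphocyte-rich libraries. NR4A2, the most abundant of them, averaged 72.6 FPKM and stood at 0.04 between the classes. Of 12 AP-1 partners and relatives, 2 were higher in VATs, below the 22.1% of all gene models. These were ATF2 (-0.29) and ATF4 (-0.29), a factor of the integrated stress response. MAFF (-0.97) was lower in SSAT, 1 of 12, where 5.23% of all gene models were. Without SSAT 6, 1 of 12 was higher in VATs and 0 were lower in SSAT. Without the lymphocyte-rich libraries these counts were 2 and 1. FOSL2 and FOSL1, the other FOS relatives, stood at 0.30 and 0.46 between the classes (limma adjusted p = 0.275 and 0.158).

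MAP kinase phosphatases other than DUSP1 were lower in SSAT for 4 of 8 tested, DUSP4 (-1.92), DUSP5, DUSP8 (-1.21) and DUSP16 (-0.56), and for 1 of 8 without SSAT 6. With all libraries, 5.23% of all gene models were lower in SSAT. Between the classes, DUSP4 (-1.47), DUSP10 (-0.56) and DUSP16 (-0.44) were higher in VATs, 3 of 8 against 22.1% of all gene models. DUSP6, the most abundant at 87.2 FPKM, stood at 0.26 and did not pass. Of 15 genes of SRF, its ternary complex, CREB and the MAP kinases, 1 was higher in SATs, the SRF coactivator MRTFB (0.69), and 4 were higher in VATs, among them CREB1 (-0.43). The 5 of 15 are near the 30% of all gene models. The mean level of these 15 genes had r = -0.398 with that of the 10 genes.

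Inducible heat shock genes differed between the classes in the direction opposite to FOS, FOSB and EGR1. Of 9, 7 passed, all of them higher in VATs, among them the chaperones HSPA1A (-1.99), HSPH1 (-1.76), DNAJB1 (-1.73) and HSP90AA1 (-0.78). Over all gene models, 22.1% passed with a higher level in VATs and 7.9% with a higher level in SATs. Their summed level was 2039 to 4249 FPKM in SATs and 3493 to 8273 FPKM in VATs. Against the other depots, 4 of 9 were lower in SSAT, where 5.23% of all gene models were, and SSAT 6 was the lowest library for this list. Without it, 3 of 9 were lower in SSAT and 7 of 9 higher in VATs. Over the 36 libraries, the mean level of the list had r = 0.0385 with that of the 10 genes, and 0.276 with depot means removed. DNAJA1 was the only one of the 9 with r above 0.5 (0.686).

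Glucocorticoid responsive genes had r = 0.173 with the 10 genes over 36 libraries, and 1 of 7, KLF9 (0.73), was higher in SATs. FKBP5, a sensitive target of the glucocorticoid receptor, stood at 0.12 (limma adjusted p = 0.707). Genes responsive to hypoxia had r = 0.378, and 1 of 9 differed between the classes, CA9 (-0.64), higher in VATs. Over all gene models, 30% passed between the classes. In SSAT 0 genes of either list passed with limma, where 9.13% of all gene models did. At an unadjusted p under 0.05 there were 1 of 7 and 2 of 9, where all gene models gave 4551 of 17688. VEGFA, the vascular growth factor, stood at -1.09 in SSAT (limma adjusted p = 0.125).

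Markers of cell types were set beside these levels. Over 36 libraries, the mean level of each of 11 marker lists had r between -0.209 (T cells) and 0.284 (fibroblasts and progenitors) with that of the 10 genes. Adipocyte markers had r = -0.0210, and 0 of 10 passed between the classes or in SSAT with limma, where 30% and 9.13% of all gene models did. At an unadjusted p under 0.05 there were 2 and 0, where all gene models gave 7505 and 4551 of 17688. Without the 6 lymphocyte-rich libraries, 5 of 10 were higher in VATs and 2 of 10 were lower in SSAT. In that setting, 28.6% and 15.7% of all gene models passed, in either direction. Fibroblast and progenitor markers moved with the classes and with SSAT. Of 7 tested, 7 were higher in SATs, against 7.9% of all gene models. In SSAT, where ATF3, DUSP1, IER2, JUND and NR4A1 were lower, 6 of the 7 were higher, and 9.13% of all gene models passed in either direction. Without SSAT 6, 4 of 7 were higher in SSAT and none of the 10 genes passed. The summed level of the 7 markers was 934 to 3452 FPKM in SATs and 358 to 1720 FPKM in VATs, and none was at 0 in any library. Their part in the levels of the 10 genes was not tested.

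In BSAT 3 and IAT 5, the highest libraries for the 10 genes, fibroblast markers ranked 27 and 3 of 36 and adipocyte markers 18 and 28. In SSAT 6, the lowest, they ranked 4 and 20. By the mean log2 level, on which these ranks are based, B cell markers ranked 36 in SSAT 6 and T cell markers 30. PRAT 2, next to lowest for the 10 genes, ranked 2 of 36 for both B cell and T cell markers. Endothelial markers ranked 31 in SSAT 6 and 33 in PRAT 2, and neutrophil markers 34 and 29, while in BSAT 3 and IAT 5 they ranked 2 and 28 (endothelial) and 20 and 31 (neutrophil). Only 3 neutrophil genes were tested. Their summed level was 0.361 FPKM in SSAT 6 to 0.908 FPKM in BSAT 3 among these libraries, so the neutrophil ranks lie near the floor. T cell markers also moved with the classes, 7 of 9 being higher in VATs, against 22.1% of all gene models. Their summed FPKM had a median of 33.1 FPKM in SATs and 85.6 FPKM in VATs and reached 601 and 2228 FPKM, and CD3G was at 0 in 4 libraries. Without the 6 lymphocyte-rich libraries 1 of 9 was higher in VATs. Of the mesothelial markers, 4 of 8 were higher in VATs, against the same 22.1%. Their part in the levels of FOS, FOSB and EGR1 was not tested.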

How the data were processed

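The authors filtered reads with Fastp, aligned them with HISAT2 2.2.1 and quantified gene models with StringTie 2.1.4 on their own buffalo genome, and the deposited values are FPKM. Labels name a TruSeq kit, whereas the methods state libraries depleted of ribosomal RNA. Depth per gene is not known from FPKM, so no counting interval was given, and unmapped, multi-mapped and strand handling are not given in the sources used here.

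Values were taken as log2(FPKM + 0.1), and gene models averaging more than 0.1 FPKM went into limma 3.58.1 in R 4.3.3 (moderation following the mean, Benjamini-Hochberg adjustment over all gene models). SATs against VATs had a term for the class only. Depots and pairs of depots had a term per depot. Animals were tested by an F test beside the depot, and sexes on the means of each animal. By the labels, a shared number marks a shared animal. After removal of depot means, such libraries had a mean correlation of 0.217, against -0.0387 for different animals. The p-values for classes, depots and pairs of depots took libraries as independent, although libraries shared animals. They rest on the spread between libraries, with those of the same animal counted separately.

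The members and lists were chosen with earlier results of these data known. The text names the 10 members, up to 4 genes of each list by mean FPKM, and the 10 gene models most like the members. Other list genes that are named were chosen after their values were seen. Alternatives covered the pseudocount (0.01 and 1), the filter (none and 1), TPM scaling, quantile normalization, summed gene models, the animal as a block, and left-out animals or libraries. Leaving out BSAT 3 with IAT 5, or SSAT 6, was chosen after seeing the data. Scripts were tested on simulated data in which libraries were independent, so this does not cover the effect of shared animals. Figures used Python 3.11.15 and matplotlib 3.10.9.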

Additional observations from a re-analysis of the deposited data

Results flagged for a closer look

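Within a depot of 6 libraries, 3 of 60 combinations of gene and depot had 1 library far from the others by Dixon's test, and chance flags about 1 in 20. JUN stood at 26.6 FPKM in PRAT 2, where the next PRAT library had 61.1 FPKM. NR4A1 stood at 243 FPKM in PRAT 2, where the next had 674 FPKM, and at 201 FPKM in OAT 1, where the next had 490 FPKM. All 3 were low values, and PRAT 2 and OAT 1 were among the 6 lymphocyte-rich libraries.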

How the results depend on the processing

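The pseudocount, the filter at an FPKM of 1, TPM scaling and summed gene models left the number of the 10 genes called between SATs and VATs at 3 and in single depots at 5. Without the 6 lymphocyte-rich libraries the former was 1 and the latter 6. The count in single depots was 3 without a filter, 2 under quantile normalization, 3 without BSAT 1 and 0 without SSAT 6. For pairs of depots it was 15 with the replicate block, against 9 without it, and the share of all gene models in pairs was not taken with the block. The block with a SAT and a VAT mean per animal was run between the classes only, where it gave 4 calls and changed no other. The animal as a fixed term left 3 calls between the classes and 5 in single depots. Leaving out each animal gave 2 to 3 calls between the classes, 0 to 5 in single depots and 0 to 13 in pairs. Animals and sexes gave 0 under each alternative run.

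Signs changed only for values that had not passed. For SATs minus VATs, JUND stood at -0.10 without the lymphocyte-rich libraries, at -0.094 without BSAT 3 and IAT 5, and at -0.043 to 0.13 without an animal. ATF3 stood at -0.038 under TPM scaling, -0.077 without the lymphocyte-rich libraries, -0.068 without BSAT 1, -0.28 without BSAT 3 and IAT 5, and -0.19 to 0.26 without an animal. NR4A1 stood at 0.032 without SSAT 6, and IER2 at -0.042 without BSAT 3 and IAT 5. For SSAT against the other depots, FOS stood at -0.66 to 0.20 and EGR1 at -0.59 to 0.012 without an animal. The cause of these changes was not tested. Read depth per gene is unknown, and 6 libraries per depot limit what can be seen.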
